A study of Homo sapiens with 15 samples.

Results

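The replication-dependent histone genes were the 63 genes of 39133 whose symbols follow the current or older naming of the clustered H1, H2A, H2B, H3 and H4 genes. No row had to be dropped as a pseudogene. The set held 6 H1, 15 H2A, 17 H2B, 14 H3 and 11 H4 genes. The symbol rule also took in H3-5, a retrocopy related to H3-3B, and the testis-type genes H1-6 and H3-4, which are not typical of the group.

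These genes supply the bulk of the histones that package newly copied DNA. Their transcripts are made mainly in S phase and usually end in a stem-loop, bound by the stem-loop binding protein SLBP, in place of a poly(A) tail. Some of the genes also give polyadenylated transcripts that run past the stem-loop. The libraries here were selected for poly(A), so a change in transcript amount and a change in the polyadenylated share cannot be told apart.

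The samples were 15 libraries of HepG2, a human hepatocellular carcinoma cell line of wild-type genotype, in 5 groups of 3 biological replicates. The series addresses how sodium butyrate acts on cells made insulin resistant with palmitate, a saturated fatty acid. Sodium butyrate, a short-chain fatty acid salt that inhibits histone deacetylases, was given at 0.5 mM (low), 1 mM (medium) or 1.5 mM (high) to cells that also had palmitate. The other groups were palmitate alone and untreated control cells. Palmitate is labelled as 200 mM, and that unit could not be checked. Library names give 24 h of palmitate and 24 h of butyrate in the butyrate groups but 48 h of palmitate in the palmitate group, so palmitate time and butyrate cannot be told apart. No group had butyrate without palmitate. All libraries carry the same batch label.

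Library totals ran from 35349827 to 61086976 counts. The liver markers ALB, APOA1, APOB, AFP and SERPINA1 were abundant in every library, with ALB at 873 to 2065 FPKM (fragments scaled to gene length and library total). Summed FPKM over the 6 liver markers was 5108 to 5238 in control, 5199 to 5905 with palmitate, 6205 to 6455 with low butyrate, 6404 to 6485 with medium butyrate and 4873 to 5058 with high butyrate. Single markers moved both ways with high butyrate against palmitate, with log2 changes of -1.26 for AFP and -1.11 for ALB but 1.00 for APOA1 and 0.80 for APOB. The 3 immune markers summed to at most 0.0908 FPKM in any library. The 4 stromal or endothelial markers summed to 2.42 to 2.97 FPKM with high butyrate, against 0.690 to 0.849 with palmitate. In that comparison 4 of 4 were called higher, where 37.7% of all genes tested were called higher. None of these 4 was at 0 throughout a group, and their part in the histone result was not tested.

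The stem-loops of members that the results turn on are shown because they carry the normal, non-polyadenylated end of the transcript. A search of GENCODE 29 transcripts for GG, NNN, TTTT, N, A, NNN and CC in a row, with 6 paired stem bases, found the structure in 27 members. The sequence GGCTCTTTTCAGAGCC occurred in 14 of these. Lines give the DNA letters 5′ to 3′ with 5 flanking bases on each side, and capitals mark the 16 bases of the stem-loop.
H3C10: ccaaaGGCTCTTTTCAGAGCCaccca
H2AC6: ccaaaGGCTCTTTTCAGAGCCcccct
H2BC21: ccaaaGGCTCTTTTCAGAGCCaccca
H2BC5: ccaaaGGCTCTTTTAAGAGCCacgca
H4C9: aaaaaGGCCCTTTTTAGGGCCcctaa
H4C8: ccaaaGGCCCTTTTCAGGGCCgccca
H4C5: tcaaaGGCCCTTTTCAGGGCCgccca
The capitals lie at GRCh38 chr6:27810516-27810531 (plus strand) for H3C10, chr6:26124669-26124684 (plus) for H2AC6 and chr1:149886188-149886203 (minus) for H2BC21. Those of H2BC5 lie at chr6:26158587-26158602 (plus) and those of H4C9 at chr6:27139654-27139669 (plus). H4C8 has its stem-loop at chr6:26285131-26285146 (minus), and H4C5 has the same 16 bases at chr6:26205001-26205016 (plus). Many gene models of this annotation hold the coding part alone, so a member without a match says only that these letters are not in its model. The models used in counting can differ in length from these, as for H4C2 with 1332 bases in counting and 438 here.

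Under high butyrate, counts on the histone genes took a several-fold larger part of these poly(A)-selected libraries. The 63 genes together received 0.0173%, 0.0180% and 0.0184% of all counts with high butyrate, against 0.00349%, 0.00378% and 0.00329% with palmitate. The 3 high-butyrate libraries all lay above the 3 palmitate libraries, and the ratio of the means was 5.08 ± 0.39 (SD propagated from the group SDs, n = 3 each). Low butyrate gave 0.00476%, 0.00516% and 0.00511%, a ratio to palmitate of 1.42. Medium butyrate gave 0.00528%, 0.00548% and 0.00582%, a ratio of 1.57. The palmitate share was 0.921 of the control share, where control libraries had 0.00359%, 0.00386% and 0.00401%. A sum over chosen genes was given no p. In bulk libraries, more cells that express a gene and more RNA per cell cannot be told apart. Mitochondrial transcripts were also higher with high butyrate, at 12.7 ± 1.21% of counts, against 9.71 ± 0.95% with palmitate (SD, n = 3 each). They took 10.3 ± 0.67% with low and 10.0 ± 1.10% with medium butyrate, where the libraries overlapped those with palmitate. Their part in the histone result was not tested. With mitochondrial counts left out of the total the histone ratio was 5.26.

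**Figure D1:**
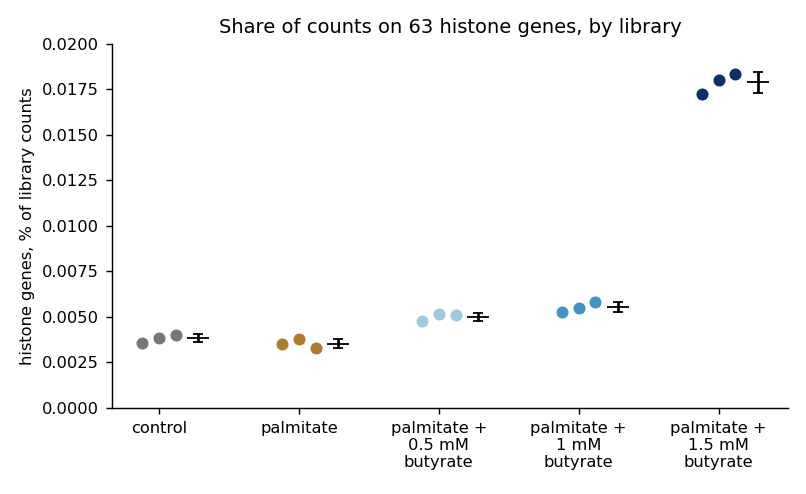
Percent of each library's counts that fell on the 63 histone genes (vertical axis) in the 5 groups, 3 libraries each. Points are libraries, black bars the group mean ± SD; high butyrate lies at 0.0173% to 0.0184%, above every other library.

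The ratio of high butyrate to palmitate was computed for each of the 5 histone types. The H2B genes took 6.78 times the share with high butyrate that they took with palmitate, and the H1 genes 5.24 times. The ratios were 3.89 for H2A, 3.51 for H3 and 3.77 for H4. Shares of counts weigh genes with long models more. With summed FPKM, which is scaled to gene length, the ratios were 6.74 for H2B and 5.27 for H1. They were lower than the count ratios for H2A (2.68), H3 (2.55) and H4 (2.55). These are ratios of group means of 3 libraries and were given no test between types.

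Of the 63 genes, 32 had enough counts to be tested. The other 31 had at most 18 counts in any library, and summed to 368 counts over the 3 high-butyrate libraries and 143 over the 3 palmitate libraries. With high butyrate against palmitate, 21 of the 32 tested genes were called higher and 1 lower by edgeR's quasi-likelihood test (Benjamini-Hochberg adjusted p under 0.05 over 20309 genes). Of all genes tested, 37.7% were called higher and 33.8% lower. The median log2 change of the 32 was 1.65, against 0.06 for all genes. Since 14 of the 32 were expressed below an average of 0 log2 CPM (counts scaled to library total), the counts are also given by level. At 0 to 5 log2 CPM, 14 of 18 histone genes were called higher and 1 lower, where all genes gave 38.9% higher and 37.6% lower. Below 0 log2 CPM, 7 of 14 were called higher, where all genes gave 45.8% higher and 9.04% lower. The share called among the low-level members was near the background.

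**Figure D2:**
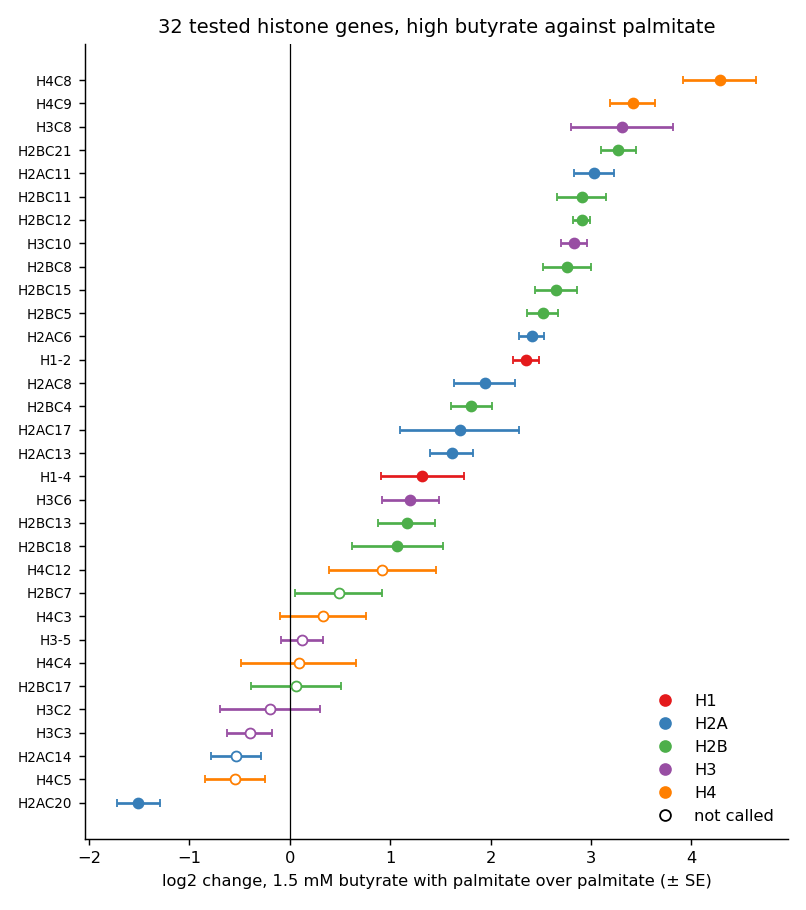
Log2 change of the 32 tested histone genes, palmitate with 1.5 mM butyrate over palmitate alone (horizontal axis), with bars of 1 SE. Filled points were called at adjusted p under 0.05; H4C8 is the highest at 4.28 and H2AC20 the lowest at -1.51.

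By type, the calls in high butyrate against palmitate were 2 of 2 tested H1 genes higher, 5 of 7 H2A genes higher with 1 lower, 9 of 11 H2B genes higher, 3 of 6 H3 genes higher and 2 of 6 H4 genes higher. With 37.7% of all genes called higher, the H4 count and the H3 count are near the background. Of the tested genes that GENCODE places on chromosome 6, 19 of 26 were called higher and none lower. That count leaves out H3C2 and H3C3, which had no GENCODE entry. Their promoters also lie on chromosome 6, and both were tested and not called. The 3 tested genes on chromosome 1 gave 2 higher and 1 lower.

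The linker histones, which bind the DNA between nucleosomes, were represented by H1-2 and H1-4. H1-2 had 13.6, 14.4 and 15.5 CPM with high butyrate, against 3.05, 3.02 and 2.47 CPM with palmitate. The groups did not overlap, and the log2 change was 2.36 ± 0.13 (SE; adjusted p = 6.2e-13, edgeR). H1-4 had 1.18, 0.957 and 0.947 CPM with high butyrate, against 0.704, 0.333 and 0.206 CPM with palmitate. Its log2 change was 1.32 ± 0.41 (adjusted p = 0.0068, edgeR).

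Among H2B genes, which encode a partner of the H2A-H2B dimer, H2BC12 (ENSG00000197903, GRCh38 chr6:27146418-27146798, minus strand) held the largest part of the group's counts. The position is that of GENCODE, which holds only the 381 coding bases. The length that links its counts and FPKM was 495 bases, of which 114 were non-coding. H2BC12 had 40.1, 42.8 and 41.5 CPM with high butyrate, against 5.70, 5.26 and 5.61 CPM with palmitate. The log2 change was 2.91 ± 0.08 (adjusted p = 1.6e-17, edgeR). The high-butyrate libraries stood far above the palmitate libraries, and per length H2BC12 reached 88.0 ± 4.6 FPKM with high butyrate and 10.7 ± 0.2 FPKM with palmitate (SD, n = 3 each). It made up 24.3 ± 0.7% of the histone counts with high butyrate and 15.1 ± 1.3% with palmitate. H2BC21 had 12.9, 9.57 and 12.5 CPM with high butyrate, against 1.10, 1.29 and 1.22 CPM with palmitate (log2 change 3.27, adjusted p = 4.1e-13, edgeR). H2BC5 had 11.5, 12.6 and 11.1 CPM with high butyrate, against 2.26, 2.13 and 1.78 CPM with palmitate (log2 change 2.52). In both genes every high-butyrate library lay above every palmitate library. H2BC8, H2BC11 and H2BC15 had log2 changes of 2.76, 2.91 and 2.65. In GENCODE, H2BC15 overlaps other histone genes, as H2BC5 and H2BC18 overlap non-histone genes, so counts there may be shared. The tested H2B genes that were not called were H2BC7 (log2 change 0.49, adjusted p = 0.32) and H2BC17 (0.06, adjusted p = 0.91), both picked out after their values were seen.

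Among H2A genes, H2AC6 had 18.5, 17.4 and 16.5 CPM with high butyrate, against 3.07, 3.55 and 3.26 CPM with palmitate. The groups did not overlap (log2 change 2.41 ± 0.12, adjusted p = 2.0e-13, edgeR). H2AC11 had log2 change 3.03, H2AC8 1.94 and H2AC13 1.61, all called higher. H2AC20 (ENSG00000184260; GRCh38 chr1:149886975-149887364, plus strand) was the one tested member called lower. It had 0.735, 0.718 and 0.706 CPM with high butyrate, against 2.26, 2.06 and 1.83 CPM with palmitate, a log2 change of -1.51 ± 0.22 (adjusted p = 2.2e-06, edgeR). Its high-butyrate libraries all lay below its palmitate libraries. H2AC14 had a log2 change of -0.54 (adjusted p = 0.058), which was not called.

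The core histones H3 and H4 form the tetramer on which the nucleosome is built. H3C10 had 14.3, 14.1 and 15.1 CPM with high butyrate, against 2.11, 1.95 and 2.04 CPM with palmitate (log2 change 2.83 ± 0.13, adjusted p = 3.3e-14, edgeR). The high-butyrate libraries all lay above the palmitate ones. H4C9 had 3.45, 3.43 and 3.14 CPM with high butyrate, against 0.352, 0.311 and 0.274 CPM with palmitate (log2 change 3.41 ± 0.23). H4C8, chosen after its values were seen, had 121, 119 and 145 counts with high butyrate, against 8, 10 and 2 counts with palmitate, and the largest log2 change of the tested members, 4.28 ± 0.36. Other members did not move past the test. H3C3 had 1.16, 1.04 and 1.19 CPM with high butyrate, against 1.66, 1.33 and 1.47 CPM with palmitate (log2 change -0.40, adjusted p = 0.12). H3-5 had a log2 change of 0.12 with a 95% interval of -0.29 to 0.53. H4C5, with the same 16 stem-loop bases as H4C8, had a log2 change of -0.55 (adjusted p = 0.11). H3-5 and H4C5 were also picked after their values were seen.

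**Figure D3:**
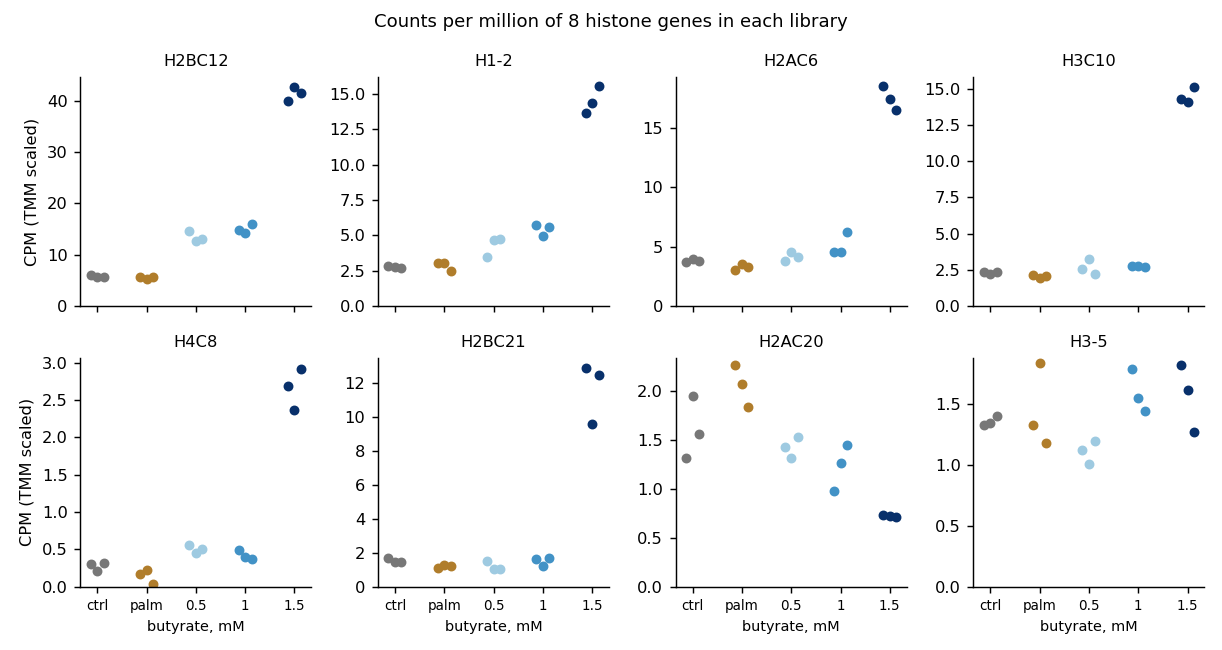
CPM (vertical axes, each from 0) of 8 histone genes in each library, by group: control, palmitate, then palmitate with 0.5, 1 or 1.5 mM butyrate. In the first 6 genes the 1.5 mM libraries stand above all others. H2AC20 falls to 0.706 to 0.735, and H3-5 was not called at 1.5 mM against palmitate.

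Fewer members were called at the lower doses. With low butyrate against palmitate, 9 of 32 tested members were called higher and 1 lower, where 25.9% of all genes were called higher and 24.0% lower. With medium butyrate the counts were again 9 and 1, beside 27.1% and 24.4% of all genes. Both counts of higher calls are near the background share. The member called lower with low butyrate was H2AC20 (log2 change -0.52, adjusted p = 0.038, edgeR), and it was not called when palmitate replicate 1 or 2, or any one of the low-butyrate replicates, was left out. H2BC12 had 14.6, 12.8 and 13.1 CPM with low butyrate and 14.8, 14.3 and 15.95 CPM with medium butyrate, with log2 changes over palmitate of 1.29 and 1.44. H4C9 changed by 1.13 with low and 1.42 with medium butyrate, and H2BC11 by 1.18 and 1.51. H2BC21, in contrast, had log2 changes of -0.01 with low butyrate (adjusted p = 0.97) and 0.32 with medium butyrate (adjusted p = 0.17). H2BC8, H2BC4 and H2AC13 likewise were not called at the lower doses. H2BC4 was named after its values were seen. It was called with low butyrate when log2 FPKM, with 0.1 added, was fitted in place of counts. Medium against low butyrate gave 0 members called in either direction by edgeR, as for all genes (0% higher and 0% lower), and 3 members at an unadjusted p under 0.05.

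High against medium butyrate gave 20 members higher and 2 lower, where all genes gave 26.9% and 28.7%. H2BC21 changed by 2.95, H2AC11 by 2.48 and H3C10 by 2.40 in that comparison. The 2 lower were H2AC20 (-0.77) and H2AC14 (-0.96, adjusted p = 0.0021). Against untreated control, high butyrate gave 22 higher and 1 lower, with 36.9% and 33.1% for all genes. That comparison shares its high-butyrate libraries with the one against palmitate.

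In palmitate against control, 0 of the 32 tested members were called by edgeR, where 0.0345% of all genes were called higher and 0.0739% lower. Of the members, 1 had an unadjusted p under 0.05, and log2 changes lay between -1.03 and 0.77. H2BC12 had 5.70, 5.26 and 5.61 CPM with palmitate, against 6.04, 5.59 and 5.63 CPM in control.

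Neighbouring genes were compared because many H2A and H2B genes sit head to head with their starts close together. GENCODE 29 gives 11 divergent pairs among the members within 1000 bases, of which 6 had both genes tested. The 11 include H3C12 with H2BC17, which is not an H2A and H2B pair and had H3C12 untested. This comparison was chosen after the values were seen and is a description. In 4 of the 6 pairs both genes were called higher in high butyrate against palmitate (H2BC11 with H2AC11, H2BC13 with H2AC13, H2BC4 with H2AC6, and H2BC8 with H2AC8). Single genes were called higher in 21 of the 32 tested members and in 37.7% of all genes. Whether neighbours move together was not tested. In 1 pair, H2AC17 was called higher (log2 change 1.69) and H2BC17 was not (0.06). H2AC17 had at most 16 counts in a library, and its call was lost without palmitate replicate 1 or 2, without high butyrate replicate 1, and with no filter on low counts. The remaining pair went opposite ways. H2BC21, on the minus strand of chromosome 1, changed by 3.27, while H2AC20, on the plus strand, changed by -1.51. Their GENCODE 29 starts lie 323 bases apart, where the H2AC20 model holds the coding sequence alone. The RefSeq starts used for the promoters below differ from these.

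The promoters of H2AC20, which fell, and H2BC12, which rose with the most counts, are shown beside each other. RefSeq promoters (250 bases before to 50 after the start, GRCh38.p14) were matched for 57 members. Capitals mark TATAAA, ATTTGCAT (the octamer bound by OCT1) and CCAAT on either strand, with TATAAA and other motifs allowed to overlap. The H2AC20 window is chr1:149886668-149886967 on the plus strand and the H2BC12 window is chr6:27146806-27147105 on the minus strand.
H2AC20: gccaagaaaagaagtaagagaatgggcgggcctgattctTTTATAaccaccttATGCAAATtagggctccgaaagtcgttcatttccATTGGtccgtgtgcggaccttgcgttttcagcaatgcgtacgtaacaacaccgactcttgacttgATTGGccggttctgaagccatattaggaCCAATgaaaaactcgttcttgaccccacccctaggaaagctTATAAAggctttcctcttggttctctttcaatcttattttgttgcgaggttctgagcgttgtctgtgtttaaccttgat
H2BC12: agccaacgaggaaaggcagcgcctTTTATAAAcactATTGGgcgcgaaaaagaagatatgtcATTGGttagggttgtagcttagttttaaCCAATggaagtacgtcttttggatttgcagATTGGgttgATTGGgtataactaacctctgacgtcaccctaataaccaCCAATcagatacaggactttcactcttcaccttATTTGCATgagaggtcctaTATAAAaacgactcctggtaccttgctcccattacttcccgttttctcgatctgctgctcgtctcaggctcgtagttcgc
Both windows hold all 3 motifs, and the genes moved in opposite directions. Most of the H2AC20 window is also part of the H2BC21 window (chr1:149886633-149886932, minus strand), and H2BC21 was called higher. The octamer was present in 14 of 17 H2B and 11 of 14 H2A promoters and in none of the H1, H3 and H4 promoters, beside 1.77% of 35116 promoters of the same length. TATAAA was in 40 of 57 members' promoters, beside 11.5% of all, and CCAAT in 49 of 57, beside 34.6%. Among tested members, 10 of 14 with the octamer were called higher with high butyrate, and 11 of 16 without it. The share called higher over all genes tested was 37.7%. For TATAAA the counts were 15 of 21 with it and 6 of 9 without. For CCAAT they were 20 of 26 with it (median log2 change 1.87) and 1 of 4 without (median 0.51), and all 4 without it are H4 genes. Motif matches were on both strands and describe letters only. Head-to-head H2A and H2B genes share much of these windows, so the same site can be counted for both genes. The octamer in the H2AC20 window, for example, is also the octamer of the H2BC21 window, read on the other strand.

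The gene models used in counting differ in how much they hold beyond the coding part, and the members split by this length. Model length was taken as the length that links the deposited counts and FPKM. With over 300 non-coding bases, 14 of 17 tested members were called higher with high butyrate (median log2 change 2.65). With 300 or fewer, 7 of 13 were called higher and 1 lower (median 1.16). Over all genes tested, 37.7% were called higher and 33.8% lower. The limit of 300 was set after the values were seen, and no test was made. The lengths fall into ranges of 58 to 185 and of 447 to 4921 bases over all 60 members that have a coding length. H2BC12, H1-2 and H2AC20 are in the short range and H2BC21, H3C10 and H4C8 in the long one. H4C5 (1175 non-coding bases) and H2BC7 are long and were not called.

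**Figure D4:**
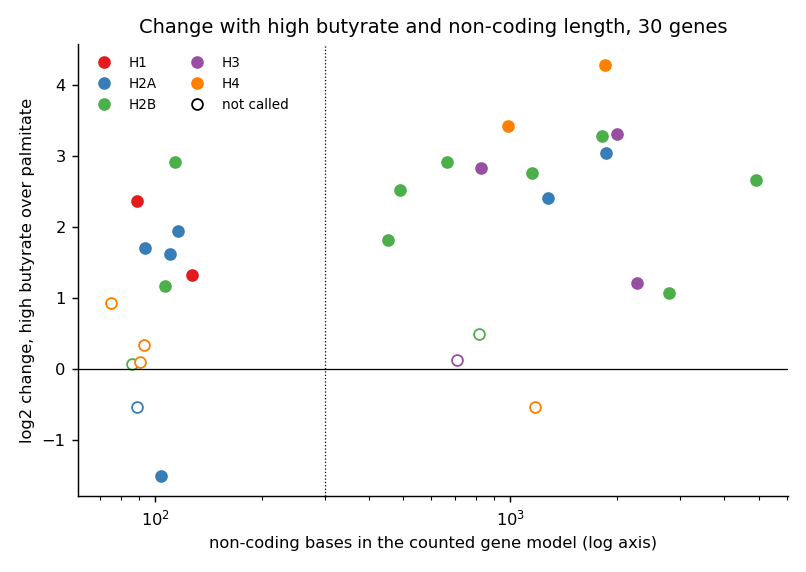
Log2 change with high butyrate over palmitate (vertical axis) against non-coding bases in the gene model (horizontal log axis) for the 30 tested members with a coding length. Filled points were called. The dotted line marks 300 bases, with 14 of 17 called higher to its right and 7 of 13 to its left. Over all genes tested, 37.7% were called higher.

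Genes of the surrounding pathway moved mostly the other way in the same fit. Of 45 tested S-phase genes, 44 were called lower and 1 higher with high butyrate against palmitate, with a median log2 change of -1.59. All genes tested gave 33.8% lower and 37.7% higher. CCNA2, the S-phase cyclin A, had 19.0, 18.4 and 18.9 CPM with high butyrate, against 179, 157 and 170 CPM with palmitate (log2 change -3.17, adjusted p = 2.3e-19, edgeR). TYMS, which makes thymidylate for DNA synthesis, changed by -3.16 and CDC45, a replication fork helicase factor, by -2.56. MCM6, a subunit of the replicative helicase, changed by -2.14 and PCNA, the sliding clamp, by -0.78. The one S-phase gene called higher was TK1, thymidine kinase (0.63), named after its value was seen.

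Histone RNA processing genes gave 22 lower and 8 higher of 34, where all genes gave 33.8% lower and 37.7% higher. SLBP had 56.0, 56.1 and 53.4 CPM with high butyrate, against 126, 93.9 and 105 CPM with palmitate (log2 change -0.97 ± 0.08, adjusted p = 8.1e-10, edgeR). Its groups did not overlap. NPAT, the coactivator at histone gene clusters, changed by -0.31 (adjusted p = 0.00053). CTIF, a translation initiation factor linked to histone messages, had 45.0, 45.5 and 45.6 CPM with high butyrate, against 17.2, 18.9 and 19.3 CPM with palmitate (log2 change 1.30). E2F1, a transcription factor of S-phase genes, changed by -2.02, and the cleavage factor subunits CSTF2 and CPSF2 by -1.50 and -1.26. Poly(A) and decay genes gave 12 lower and 2 higher of 17. EXOSC10, a nuclease of the nuclear exosome, changed by -1.38, the cleavage factor subunits CPSF7 and CPSF6 by -1.01 and -0.74, and CDK9, the elongation kinase, by 0.84. Histone chaperones gave 18 lower and 2 higher of 21, among them CHAF1A, the large subunit of the replication-coupled assembly factor, at -1.57. HJURP, the chaperone of centromeric histone H3, changed by -2.44, TONSL, which binds new histones at replication forks, by -1.90 and MCM2, a helicase subunit that binds H3 and H4, by -1.89.

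Histone genes outside the clusters, whose transcripts are mostly polyadenylated, gave 6 lower and 4 higher of 13 tested. With 33.8% of all genes called lower and 37.7% higher, these counts are near the background. H2AZ1, a replacement H2A variant, had 26.6, 27.0 and 31.0 CPM with high butyrate, against 128, 102 and 114 CPM with palmitate (log2 change -2.02, adjusted p = 9.8e-15, edgeR). CENPA, the centromeric H3, changed by -1.79, MACROH2A2 by -1.38 and H2AX, the variant phosphorylated at DNA breaks, by -1.25. H3-3A changed by -0.32 and H3-3B by 0.09, the second not called. H2AJ, 1 of the 4 called higher, changed by 1.03 and was named after its value was seen. The median log2 change of the 13 was 0.09. The plot of histone genes and related lists by dose shows the other members.

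**Figure D5:**
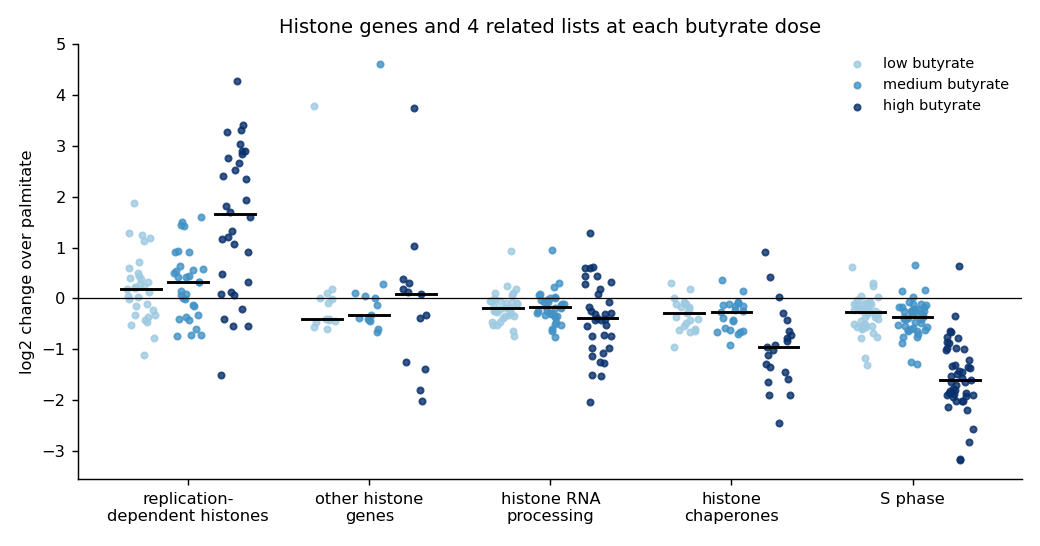
Log2 change over palmitate (vertical axis) at low, medium and high butyrate for the tested histone genes and 4 related lists; each point is a gene and the black bar the median. At high butyrate the histone median is 1.65 and the S-phase median -1.59.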

How the data were processed

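Gene counts and FPKM per library were deposited by the authors; the submitters' processing notes name FastQC, HISAT2, featureCounts, DESeq2 and GRCh38, with no strand or multi-mapping setting, so near-identical or overlapping histone genes may share reads. FPKM followed from the counts within 1% for 11013 of 11013 genes whose lowest library had 100 counts or more. Low counts were mostly even: 69.2% of values from 1 to 20 against 50.5% from 100 to 1000; the reason was not tested, and counting error may be larger than single counts imply. The counts of all genes were fitted with edgeR 4.0.16 (R 4.3.3; TMM scaling, filterByExpr, quasi-likelihood test, 15 libraries in 1 fit, 20309 genes), with Benjamini-Hochberg adjustment; common biological variation was 8.88%. Named genes were the 8 members highest in FPKM, the 6 largest rises and falls per comparison at 0 log2 CPM or above, tested H1 genes, 4 per list and a fixed panel; others are marked in the text, and 1 gene of the panel is not reported here. Members and lists were chosen with earlier results of these data known. The fit was tested on simulated data. Series text calls the replicates biological; same-numbered libraries did not deviate together (r from -0.0598 to 0.0522).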

Additional observations from a re-analysis of the deposited data

How the results depend on the processing

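Counts of members called are given as higher and lower. For low butyrate against palmitate (9 higher, 1 lower), leaving out 1 library gave 6 to 9 higher and 0 to 1 lower (0 without palmitate replicate 1 or 2, or low butyrate replicate 1 or 3). The fit of only the 6 libraries compared gave 5 higher and 2 lower, and an adjusted p under 0.01 gave 5 and 0. Library totals alone and no filter on low counts each gave 0 lower. For medium butyrate, leaving out 1 library gave 8 to 9 higher and 1 to 3 lower (3 without medium butyrate replicate 3). For high butyrate against palmitate the range was 19 to 23 higher and 1 to 2 lower (2 without medium butyrate replicate 3 or high butyrate replicate 2), and no filter gave 2 lower. Against control it was 21 to 23 higher and 1 to 2 lower (2 without medium butyrate replicate 2 or 3, or high butyrate replicate 2), and no filter gave 2 lower. High against medium butyrate gave 19 to 20 higher and 2 lower in each. Fewer genes or libraries entered some of these fits; otherwise the cause was not tested.

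The ratio of the histone share to palmitate was 1.22 with low, 1.35 with medium and 4.52 with high butyrate when H2BC12, the member with the most counts, was left out. Leaving out 1 library gave 1.38 to 1.48, 1.52 to 1.63 and 4.92 to 5.28, and 0.887 to 0.951 for palmitate over control. Over 64 named gene results and 1600 gene and setting pairs, 1551 kept direction and call, 49 lost the call and 0 reversed. The calls lost among these were of H2AC20, H2AC6, H2BC15, H2BC5 and H3C10 in low butyrate, and of H2AC11 and H3C10 in medium butyrate. Replicate numbers are not shown to pair the libraries (9 of 15 correlated best with their own number), and a replicate block gave 20 higher for high butyrate against palmitate and 21 against control. Histone counts are small beside the library totals, and many members lie near 3 counts, which is 0.0491 to 0.0849 CPM, so depth limits the low members.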
